A study of Mus musculus with 8 samples.

Results

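RNA-seq values of Eednull embryonic stem cells (ESCs) were set against those of 2 wild-type ESC lines, CJ7 and E14. These were 3 of the 8 libraries of the series, with 1 library per condition, and a gene was kept when its direction in Eednull ESCs was the same against both wild-type lines. Of 36808 genes in the table, 15362 were compared, meaning that they were above 0 in all 3 libraries and reached 1 FPKM in one or more of them. FPKM scales the fragments sequenced from a gene by its transcript length and by the library's mapped total. Of the genes compared, 9968 had one direction against both lines. The Eednull line carries a point mutation in Eed and is of BALB/cR1 background, CJ7 is of 129/S background and E14 of 129/Ola background, so strain background, line and genotype cannot be told apart. Each group was 1 line grown on irradiated mouse embryonic fibroblasts, a feeder layer that was removed by plating before collection, in medium with serum and LIF. Levels come from whole cultures, in which more cells expressing a gene and more RNA per cell cannot be told apart.

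EED is a core subunit of Polycomb Repressive Complex 2 (PRC2), together with SUZ12 and the methyltransferases EZH1 and EZH2. The complex places trimethylation on lysine 27 of histone H3, and in ESCs this mark covers many silent genes for developmental regulators, among them the Hox clusters. PRC1, a second Polycomb complex, binds the mark through its CBX subunits.

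The CJ7 library is labelled as prepared and sequenced together with a library whose number is that of Eednull ESCs, so the comparison with CJ7 stayed within that batch and the comparison with E14 crossed it. The median log2 ratio of Eednull ESCs over all genes compared was -0.14 to E14 and 0.09 to CJ7, and that of CJ7 to E14 was -0.22. Ratios were taken after adding 0.1 to each FPKM value, so that differences at low levels are understated. At least 2-fold higher values in Eednull ESCs were seen for 1211 genes against E14 (7.88% of genes compared) and 1553 against CJ7 (10.1%), and at least 2-fold lower values for 1565 (10.2%) and 626 (4.07%). The split of higher and lower genes therefore differed between the references. FPKM values summed to 797748 in E14, 718852 in CJ7 and 563239 in Eednull ESCs, and the number of reads is unknown. A group of 15 predicted genes at a locus of chromosome 9 (3000282 to 3038316) and a locus of chromosome 2 (Gm10801 and Gm10800, 98502394 to 98507458), regions known for satellite repeats, set the CJ7 and Eednull libraries apart from the rest. Their summed value was 8618 FPKM in CJ7 and 16015 FPKM in Eednull ESCs, but 172 FPKM in E14 ESCs and between 115 and 589 FPKM in the other 5 libraries. The 2 libraries that stood apart were thus the 2 that share the batch label, and the cause was not tested. As near-identical copies these entries are uncertain as single genes. Against E14 their log2 ratios ran from 5.77 to 7.73, and against CJ7 from 0.53 to 1.05, which left 2 of them among the called genes.

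Against both wild-type lines, 705 genes were at least 2-fold higher in Eednull ESCs (4.59% of the 15362 genes compared) and 326 were at least 2-fold lower (2.12%). These are the genes called higher or lower in what follows. At least 4-fold differences were seen for 121 higher and 37 lower genes, and at least 8-fold differences for 32 and 4. The genes called higher were mostly low in wild-type ESCs. Their median was 0.914 FPKM in E14, 0.967 FPKM in CJ7 and 3.57 FPKM in Eednull ESCs, against 9.13, 7.51 and 8.15 FPKM over all genes compared. In 326 of the 705, both wild-type lines were under 1 FPKM, so these genes met the minimum through the Eednull library alone and had to be higher there. Among the 14777 genes at 1 FPKM or more in a wild-type line, 379 were called higher (2.56%) and 326 lower (2.21%). Of the genes called higher, 173 reached 10 FPKM in Eednull ESCs. The genes called lower had medians of 3.78, 3.22 and 1.10 FPKM in E14, CJ7 and Eednull ESCs. With 1 library per condition no test was possible, and a call states a size and a direction only.

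**Figure D1:**
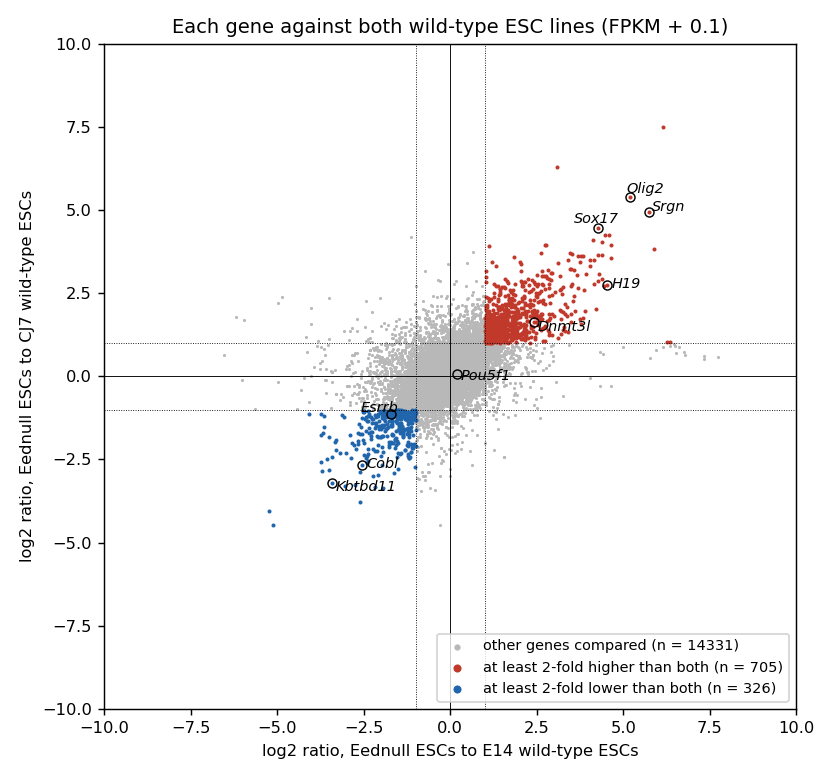
Log2 ratio of Eednull ESCs to E14 (x axis) and to CJ7 (y axis) for the 15362 genes compared, 1 point per gene, with dotted lines at 2-fold. The 705 genes called higher fill the upper right and reach further from the centre than the 326 called lower, and a separate group of predicted genes lies at high x and low y, far from E14 but near CJ7.

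The largest rise of a gene with a known name was that of Olig2 (chromosome 16, 91225795 to 91228922, NCBI build 37), a transcription factor of motor neuron progenitors. It was at 0.0436 FPKM in E14, 0.0250 FPKM in CJ7 and 5.19 FPKM in Eednull ESCs, or 36.8-fold higher than the closer line on the scale with 0.1 added. Its neighbour Olig1, of the same family, was at 0.0532, 0.0774 and 3.29 FPKM. Next came Srgn, a proteoglycan gene that is also expressed in parietal endoderm, with 0.386 FPKM in E14, 0.744 FPKM in CJ7 and 25.9 FPKM in Eednull ESCs, a 30.7-fold difference. Sox17 (chromosome 1, 4481009 to 4486494), an endoderm transcription factor, was at 0.108, 0.0824 and 3.90 FPKM, a 19.2-fold difference. The other 8 of the 12 largest rises were Ucma, a cartilage matrix protein, the homeobox genes Hoxd11, Gsx1 and Barx1, the forkhead factor Foxq1, the hexokinase-like Hkdc1, the RNA export factor family member Nxf7 and Sprr2k, a protein of the cornified envelope. They lay between 2.86 FPKM (Hkdc1) and 9.30 FPKM (Nxf7) in Eednull ESCs and at 0.561 FPKM or less in either wild-type line. Sprr2k has near-identical relatives, so its reads may be shared.

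The 300 bases around the start of these genes differed widely in CpG dinucleotides, the sequence feature that marks the promoters to which PRC2 is known to bind. Below are 4 promoters from RefSeq on GRCm38.p6, a later build than the one used for gene positions, chosen as 2 CpG-rich and 2 CpG-poor starts among the genes called higher, some of which held still more. Olig2 (chr16:91225300-91225599, plus strand) and Cdx2 (chr5:147307200-147307499, minus strand) held 25 and 18 CpG dinucleotides, while Ucma (chr2:4975872-4976171, plus strand) held 4 and Sprr2k (chr3:92432332-92432631, plus strand) held 1. Each runs 5′ to 3′ on the strand of its gene, from 250 bases before the start, with CG in capitals.
Olig2: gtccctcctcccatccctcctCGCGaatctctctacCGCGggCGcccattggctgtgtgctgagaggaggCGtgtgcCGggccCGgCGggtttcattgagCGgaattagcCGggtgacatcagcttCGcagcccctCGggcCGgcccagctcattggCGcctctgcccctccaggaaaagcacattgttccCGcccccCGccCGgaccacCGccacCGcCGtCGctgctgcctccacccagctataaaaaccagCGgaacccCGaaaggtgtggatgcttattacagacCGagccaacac
Cdx2: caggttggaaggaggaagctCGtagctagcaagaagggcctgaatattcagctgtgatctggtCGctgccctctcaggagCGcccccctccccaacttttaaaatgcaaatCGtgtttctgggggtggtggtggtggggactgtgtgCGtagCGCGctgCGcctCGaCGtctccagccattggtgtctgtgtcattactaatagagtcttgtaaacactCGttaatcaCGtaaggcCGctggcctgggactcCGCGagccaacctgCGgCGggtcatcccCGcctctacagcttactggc
Ucma: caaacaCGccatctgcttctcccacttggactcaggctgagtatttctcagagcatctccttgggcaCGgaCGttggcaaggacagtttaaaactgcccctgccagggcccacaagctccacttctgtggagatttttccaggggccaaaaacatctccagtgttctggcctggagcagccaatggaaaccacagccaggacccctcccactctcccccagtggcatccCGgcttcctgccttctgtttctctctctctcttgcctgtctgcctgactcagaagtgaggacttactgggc
Sprr2k: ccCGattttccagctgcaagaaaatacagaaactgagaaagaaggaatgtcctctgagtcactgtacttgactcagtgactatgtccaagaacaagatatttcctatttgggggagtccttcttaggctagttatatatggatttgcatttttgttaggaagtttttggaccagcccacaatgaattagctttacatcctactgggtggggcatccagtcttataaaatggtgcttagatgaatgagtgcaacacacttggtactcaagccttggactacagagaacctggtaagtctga
The letters TATAAA, the motif of a TATA box, were at base 243 of the Olig2 sequence and base 222 of the Sprr2k sequence. They were not found in the other 2 windows. The annotated start follows base 250, so the Olig2 match lies close to it. Whether either match acts as a TATA box was not tested.

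Over all protein-coding genes, counted in the same window on NCBI build 37, the median number of CpG dinucleotides was 15 for the 616 genes called higher, 11 for the 218 called lower and 19 for the 12599 with a sequence. At least 10 of them were found in 63.1%, 55.0% and 77.8%. Both called groups thus held a larger share of CpG-poor starts than the genes compared. TATAAA on either strand was present in 14.9% of starts called higher, 10.1% called lower and 8.15% overall. The lists differed in this. Median counts among members called higher were 30 for the 5 primitive streak and mesoderm genes and 26.5 for the 10 neural regulators, 14 for the 17 Hox genes, 12.5 for the 18 endoderm genes and 10 for the 12 trophoblast genes.

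**Figure D2:**
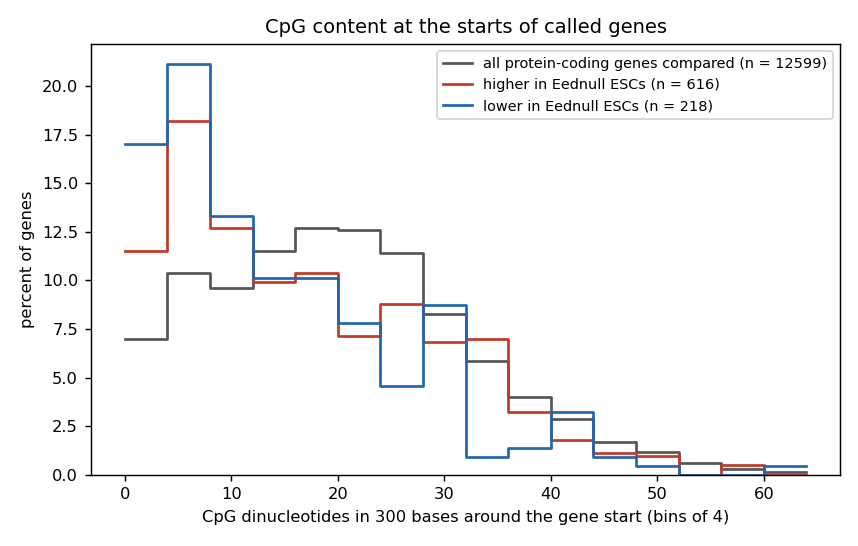
Percent of protein-coding genes (y axis) by the number of CpG dinucleotides in 300 bases around the gene start (x axis, bins of 4), for all genes compared, genes called higher and genes called lower in Eednull ESCs. The lines of both called groups lie above that of all genes at the lowest counts, with medians of 15 and 11 against 19.

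RNA of the PRC2 genes themselves was not called in either direction. Eed (chromosome 7, 97103166 to 97129493) was at 32.7 FPKM in E14, 50.9 FPKM in CJ7 and 42.4 FPKM in Eednull ESCs. Since the allele is a point mutation, this level does not check the label. Ezh2, the main methyltransferase, was at 60.8, 71.4 and 66.7 FPKM, and Suz12 at 41.3, 53.1 and 35.7 FPKM. The histone-binding subunits Rbbp4 and Rbbp7 were at 111, 147 and 121 FPKM and at 148, 100.1 and 93.1 FPKM, and the second methyltransferase Ezh1 was at 15.0, 8.16 and 7.47 FPKM, lower than in both lines but close to CJ7. Among 8 accessory genes none was called. The lowest was Mtf2, which helps recruit the complex to CpG-rich DNA, with 108, 139 and 70.8 FPKM. Of 19 PRC1 genes compared, 2 were called higher (10.5%, against 4.59% of all genes). One was Bmi1, a subunit of the canonical complex, at 3.34, 4.16 and 10.5 FPKM. The other reached 1 FPKM only in Eednull ESCs. Cbx7, the main CBX protein of ESCs, was at 61.5, 39.8 and 28.8 FPKM, lower than in both lines but by less than 2-fold against CJ7.

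The ESC markers were present in all 3 libraries. Pou5f1, which encodes OCT4, was at 142 FPKM in CJ7 and 149 FPKM in Eednull ESCs, and Sox2 was at 67.1 FPKM in E14, 78.0 FPKM in CJ7 and 58.7 FPKM in Eednull ESCs. Nanog was at 155, 147 and 107 FPKM. Of 28 pluripotency genes compared, 3 were called lower (10.7%, against 2.12% of all genes) and none higher, with list medians of -0.24 to E14 and -0.23 to CJ7. The 3 were Esrrb, Tbx3 and Tcl1, all genes of the naive state that LIF maintains. Esrrb, an orphan nuclear receptor, fell from 99.3 FPKM in E14 and 67.0 FPKM in CJ7 to 30.5 FPKM, Tbx3 from 27.0 and 28.5 to 12 FPKM, and Tcl1, a cofactor of AKT, to 8.75 FPKM from 29.2 FPKM in E14 and a lower level in CJ7, with log2 ratios of -1.73 and -1.12. Klf2 (52.5, 41.8 and 22.0 FPKM) and Zfp42, also known as Rex1 (113, 142 and 62.9 FPKM), were lower than in both lines without reaching 2-fold in each. Among 11 genes of the primed epiblast 1 was called higher (9.09%, against 4.59% of all genes) and none lower. It was Fgf5, a growth factor gene of the postimplantation epiblast, at 1.74, 1.06 and 6.38 FPKM. Pou3f1 was at 3.27, 2.11 and 5.91 FPKM, and Otx2 lay between the wild-type lines at 15.8, 6.19 and 12.5 FPKM.

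Hox genes were low in wild-type ESCs and higher in Eednull ESCs across all 4 clusters. Hox proteins set position along the body axis. With no minimum level, 32 of the 39 Hox genes were above 0 in all 3 libraries, of which 30 were higher than in both wild-type lines and none was lower, where 34.3% and 31.1% of all 19789 such genes were. By at least 2-fold, 23 of the 32 were higher and none was lower, against 5.29% and 2.14% of all genes. Of the 20 that met the 1 FPKM minimum 17 were called, but 18 of the 20 met it only in Eednull ESCs. The other 2 were not called, among them Hoxb7 (0.0896, 1.08 and 0.844 FPKM). The leading genes belonged to the posterior part of the clusters. Hoxd11 (chromosome 2, 74517449 to 74525798) was at 0.153, 0.157 and 4.34 FPKM in E14, CJ7 and Eednull ESCs, Hoxd13 at 0.786, 0.794 and 6.55 FPKM, and Hoxa11 at 0.0551, 0.0814 and 2.11 FPKM. Hoxd13, Hoxd11, Hoxd10 and Hoxd9 were consecutive among the protein-coding genes compared, and so were Hoxa5, Hoxa7, Hoxa9 and Hoxa11, where genes that were not compared, such as Hoxa10, are passed over. In the same HoxD cluster, Hoxd8, Hoxd4 and Hoxd3 were listed at 0 in Eednull ESCs and between 0.103 and 0.283 FPKM in the wild-type lines. Hoxa10 was at 8.23 FPKM in Eednull ESCs and 0.765 FPKM in CJ7, but listed at 0 in E14, and so was left out. Antisense transcripts overlap these clusters, and whether the libraries kept strand is not given in the sources used here.

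Endoderm genes were higher in Eednull ESCs, including members that wild-type ESCs already expressed. Primitive endoderm and its derivatives form the yolk sac and the basement membranes beneath it. Of 29 genes, 24 were above 0 in all 3 libraries with no minimum, and 23 of these were higher than in both wild-type lines (95.8%, against 34.3% of all genes), 18 of them by at least 2-fold (75%, against 5.29%). Of 12 members at 1 FPKM or more in a wild-type line, 8 were called higher (66.7%, against 2.56% of all such genes). The list medians over the 23 genes compared were 2.08 to E14 and 2.32 to CJ7. Of these 23, 11 met the minimum only in Eednull ESCs and so had to be higher there. Over the other 12 the medians were 1.81 to E14 and 1.81 to CJ7, against -0.17 and 0.06 over all such genes. Among the transcription factors, Gata4 was at 0.653 FPKM in E14, 1.27 FPKM in CJ7 and 11.4 FPKM in Eednull ESCs. Gata6, which specifies primitive endoderm, was at 0.168, 0.337 and 4.27 FPKM. Foxa2 was at 0.147, 0.190 and 2.61 FPKM, and Sox7 at 0.0345, 0.0682 and 1.71 FPKM. The matrix genes of this lineage were at higher levels. Lama1, a laminin chain, was at 2.23, 2.08 and 24.5 FPKM, Lamb1 at 32.2, 26.6 and 94.5 FPKM, and Sparc at 74.4, 82.4 and 287 FPKM. The genes of endocytic proteins of the yolk sac were called higher as well, with Cubn at 0.225, 0.595 and 8.09 FPKM and Dab2 at 3.68, 3.17 and 28.5 FPKM. The secreted markers of later visceral endoderm were near 0. Afp was at 0.0772 FPKM and Apoa1 at 0.208 FPKM in Eednull ESCs, both listed at 0 in the wild-type lines, and Ttr was at 1.03 FPKM. Apoe lay between the wild-type lines.

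Fibroblast genes, the markers of the feeder cells, were also higher in Eednull ESCs, and several genes of the endoderm list, such as Sparc, Lamb1 and the type IV collagens, are known to be expressed in fibroblasts too. Over 18 fibroblast genes, 14 were higher than in both wild-type lines (77.8%, against 34.3% of all genes above 0 in all 3 libraries). None was lower, where 31.1% of all such genes were. Of the 17 compared, 4 were called higher (23.5%, against 4.59% of all genes). The summed value of the 18 genes was 311 FPKM in E14, 261 FPKM in CJ7 and 566 FPKM in Eednull ESCs. Col1a1 was at 27.9, 43.5 and 104 FPKM, Col1a2 at 27.4, 30.4 and 96.5 FPKM, Thy1 at 8.72, 6.89 and 13 FPKM, and Col3a1 at 10.3, 11.5 and 15.2 FPKM. Dcn (0.374, 1.53 and 0.708 FPKM) and Lum (0.132, 0.767 and 0.136 FPKM) were lower than in CJ7. The part of fibroblast RNA in the values of matrix genes, and of the other genes called higher, was not tested.

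Trophoblast genes, those of the lineage that forms the placenta, were also mostly higher in Eednull ESCs. Of 21 genes in the table, 17 were above 0 in all 3 libraries, of which 15 were higher than in both lines (88.2%, against 34.3% of all genes) and 12 by at least 2-fold (70.6%, against 5.29%). Among 8 members at 1 FPKM or more in a wild-type line, 5 were called higher (62.5%, against 2.56% of all such genes). Cdx2, which specifies the lineage and whose promoter is printed above, was at 0.394, 0.296 and 2.62 FPKM in E14, CJ7 and Eednull ESCs. Gata3 was at 0.479, 0.948 and 2.80 FPKM, and Hand1 at 0.198, 0.722 and 2.63 FPKM. The keratins of simple epithelia were among the highest, with Krt19 at 3.59, 5.72 and 19.8 FPKM, Krt8 at 9.78, 7.94 and 27.9 FPKM, Krt18 at 11.5, 7.66 and 30.6 FPKM and Krt7 at 0.584, 0.618 and 4.86 FPKM. Krt7, Krt8 and Krt18 were consecutive among the genes compared on chromosome 15. Elf5, which maintains trophoblast stem cells, was at 0.0971 FPKM in E14 and 0.0595 FPKM in Eednull ESCs and listed at 0 in CJ7, Plac1 was listed at 0 in all 3, and Tead4 lay between the wild-type lines. The placental homeobox genes Esx1 and Rhox6 were at 4.73 and 3.62 FPKM in Eednull ESCs, while in Suz12delta ESCs, a PRC2 mutant line of C57/BL6 background, they were at 19.3 and 35.8 FPKM.

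Neural regulators were higher in part. Of 53 genes in the table, 38 were above 0 in all 3 libraries, of which 29 were higher than in both wild-type lines (76.3%, against 34.3% of all genes) and 4 lower (10.5%, against 31.1%). By at least 2-fold, 13 were higher (34.2%, against 5.29%). Of the 10 at 1 FPKM or more in a wild-type line, 2 were called higher (20%, against 2.56%). Of the 21 genes compared, 11 met the minimum only in Eednull ESCs and so had to be higher there. Among these 11, 8 were called, Olig1 and Olig2 included. The called genes of either kind also included Olig3, Six2, Nkx2-2, Nkx6-2, Lhx2, Mnx1 and Zic1. Nkx2-2, which patterns the ventral neural tube, was at 0.0660, 0.0482 and 1.17 FPKM, Mnx1, a factor of motor neurons, at 0.127, 0.187 and 1.28 FPKM, and Lhx2, a forebrain and eye regulator, at 0.363, 0.258 and 3.16 FPKM. The other 8 of the 10 at 1 FPKM or more in a wild-type line were not called. Among them were genes that wild-type ESCs already expressed at several FPKM. Pax6 was at 8.99, 15.7 and 5.69 FPKM, Sox11 at 4.50, 2.67 and 2.53 FPKM, and Nes, the neural stem cell filament, at 6.99, 6.44 and 9.16 FPKM.

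Primitive streak and mesoderm genes were mostly below the minimum. Among 35, 28 were above 0 in all 3 libraries, with 23 higher than in both wild-type lines (82.1%, against 34.3% of all genes), none lower, and 12 at least 2-fold higher (42.9%, against 5.29%). The 5 that were called after the minimum were T, Tbx1, Pitx1, Snai1 and Twist2. Of the 13 compared, 5 met the minimum only in Eednull ESCs and so had to be higher there. These gave 2 of the calls, Tbx1 and Pitx1. Of the other 8, 3 were called higher (37.5%, against 2.56% of all such genes). T, which encodes Brachyury, was at 2.60, 1.65 and 11.4 FPKM, and Tbx1 was at 0.0735, 0.193 and 1.85 FPKM. Mixl1 and Gsc, streak genes of mesendoderm, were at 0.894 and 0.772 FPKM in Eednull ESCs. Mesp1 was at 0.117 FPKM, between the wild-type lines. Eomes was at 1.05, 1.58 and 2.34 FPKM, and Fgf8, which was at 20.5 FPKM in E14 and 2.93 FPKM in CJ7, lay between them at 15.6 FPKM.

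**Figure D3:**
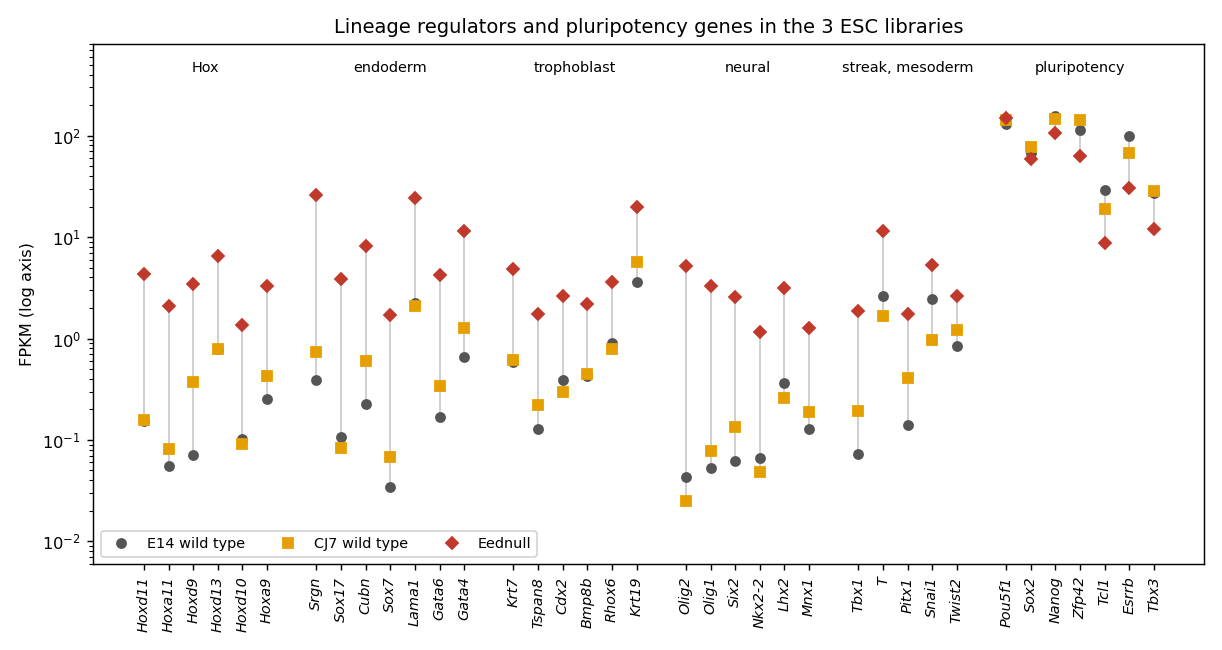
FPKM (log axis) in E14, CJ7 and Eednull ESCs for the members of 6 gene lists that were called and named by the rule in the methods, with Pou5f1, Sox2, Nanog and Zfp42 added, 1 point per library. The Eednull points of the first 5 lists lie above both wild-type points, while Tcl1, Esrrb and Tbx3 lie below both at levels of several FPKM.

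Signalling genes were called in both directions. Among 28 ligands and antagonists of the BMP, Wnt and FGF pathways compared, 10 were called higher (35.7%, against 4.59% of all genes) and 2 lower (7.14%, against 2.12%). Of the 20 at 1 FPKM or more in a wild-type line, 5 were higher (25%, against 2.56%) and 2 lower (10%, against 2.21%). Inhba, the subunit of activin A, rose from 5.48 FPKM in E14 and 4.62 FPKM in CJ7 to 32.0 FPKM, and its antagonist Fst, which encodes follistatin, from 3.86 and 6.06 to 17.1 FPKM. Wnt5a, a noncanonical Wnt, was at 0.856, 2.63 and 6.85 FPKM. Sfrp4, an antagonist of Wnt signalling, fell from 1.73 and 2.09 FPKM to 0.201 FPKM, the second largest fall of any named gene, and Fgf18 from 1.75 and 2.01 FPKM to 0.711 FPKM. Bmp4 did not differ by 2-fold, at 5.56, 6.85 and 6.39 FPKM. Of 12 retinoic acid genes compared, 1 was called higher (8.33%, against 4.59% of all genes) and none lower. It was Cyp26a1, which degrades retinoic acid, at 0.305, 0.873 and 5.78 FPKM, and it reached 1 FPKM only in Eednull ESCs.

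Among 10 cell cycle inhibitors and D cyclins, 3 were called higher (30.0%, against 4.59% of all genes) and none lower. Cdkn2a, the Ink4a/Arf locus long known as a Polycomb target, was at 10.1 FPKM in E14, 10.6 FPKM in CJ7 and 28.8 FPKM in Eednull ESCs, and its neighbour Cdkn2b at 3.29, 2.81 and 9.14 FPKM. Ccnd2 was at 12.5, 10.5 and 25.7 FPKM. All 3 were above 1 FPKM in both wild-type lines, so the minimum did not shape these calls. The part of feeder RNA in their values was not tested. Cdkn1a, the inhibitor p21, lay between the wild-type lines at 43.1, 23.5 and 32.6 FPKM.

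Imprinted genes, which are expressed from 1 parental allele, gave 5 called higher (17.2%, against 4.59% of all genes) and 1 lower (3.45%, against 2.12%) of 29 compared. H19 (chromosome 7, 149761434 to 149764048), a noncoding RNA, was at 12.2 FPKM in E14, 42.3 FPKM in CJ7 and 286 FPKM in Eednull ESCs. Its neighbour Igf2 was at 10.3, 17.8 and 43.9 FPKM, Dlk1 at 3.75, 2.48 and 13.3 FPKM, and Peg3 at 13.3, 8.37 and 37.5 FPKM. Airn, the antisense RNA of Igf2r, was at 0.815, 0.171 and 3.20 FPKM and so reached 1 FPKM only in Eednull ESCs. Igf2r lay between the wild-type lines at 24.6, 10.8 and 14.8 FPKM. The wild-type lines differed widely from each other for some members. Mest was at 3.57 FPKM in E14 and 62.8 FPKM in CJ7, with 116 FPKM in Eednull ESCs, and Plagl1 was at 0.918, 5.60 and 11 FPKM, so that neither was called against CJ7. Gab1 was the gene called lower, at 21.0, 22.7 and 7.31 FPKM.

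Of 13 genes of the DNA methylation machinery 1 was called higher (7.69%, against 4.59% of all genes) and none lower. Dnmt3l, the catalytically inactive cofactor of the de novo methyltransferases, rose from 34.3 FPKM in E14 and 60.0 FPKM in CJ7 to 186 FPKM. Its partners Dnmt3a (14.8, 17.4 and 23.2 FPKM) and Dnmt3b (50.9, 51.7 and 53.1 FPKM) were not called. Among the oxidising enzymes, Tet1 was at 32.9, 29.8 and 24.9 FPKM and Tet2 at 10.3, 9.67 and 5.97 FPKM.

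**Figure D4:**
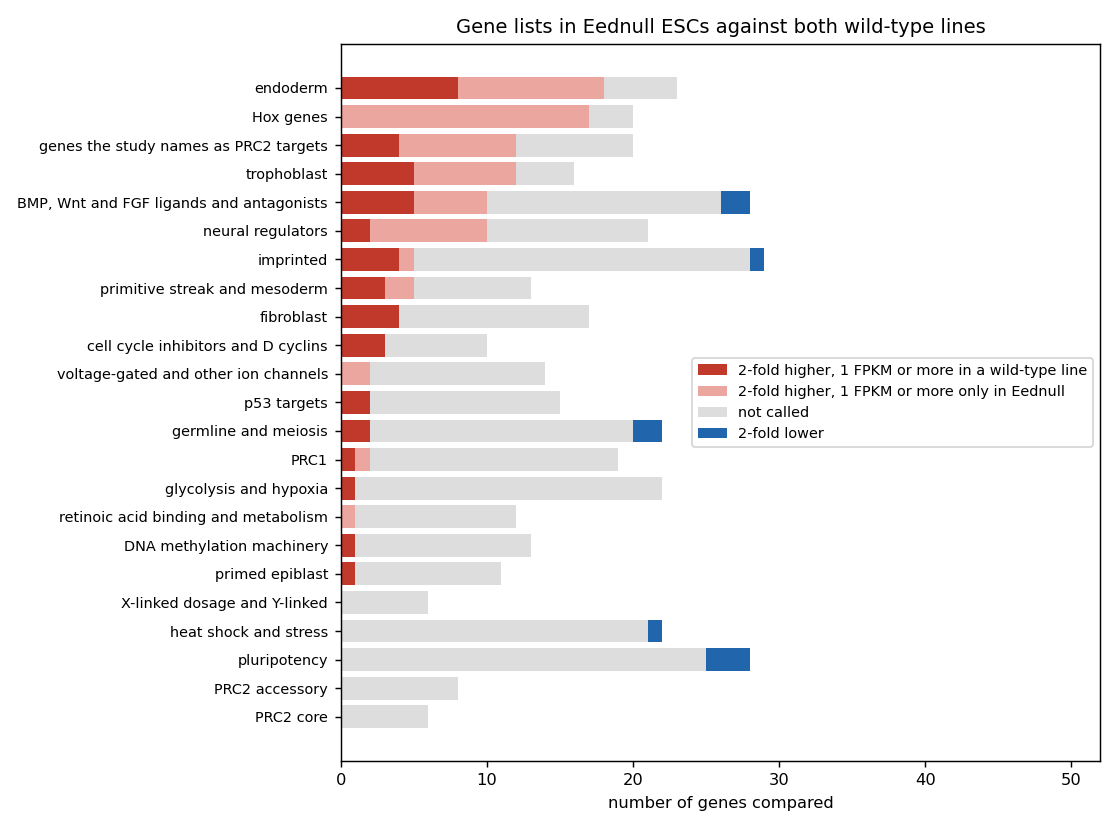
Number of genes compared in each of 23 lists (x axis), split into those called higher with 1 FPKM or more in a wild-type line, those called higher that reached 1 FPKM only in Eednull ESCs, those not called and those called lower. The endoderm list has 18 genes called higher and the Hox list 17, and the Hox genes called higher reached the minimum only in Eednull ESCs.

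Suz12delta ESCs, whose truncation of Suz12 also removes nearly all of the mark, were set beside Eednull ESCs for the same genes. Both comparisons use the same wild-type libraries, so their values are given side by side only. Only CJ7 shares a batch label with Eednull ESCs. FPKM values summed to 389165 in Suz12delta ESCs and 563239 in Eednull ESCs, so small differences between these 2 libraries are uncertain. The trophoblast genes called in Eednull ESCs were higher in Suz12delta ESCs except Cdx2 (1.80 FPKM against 2.62 FPKM) and Tspan8 (0.329 FPKM against 1.76 FPKM), with Krt7 at 27.6 FPKM against 4.86 FPKM, Hand1 at 17.9 against 2.63 FPKM and Rhox9, a further placental homeobox gene, at 39.7 against 3.35 FPKM. The endoderm transcription factors were lower, with Gata6 at 1.02 FPKM against 4.27 FPKM and Sox17 at 0.653 against 3.90 FPKM, while Dab2 was at 28.6 and 28.5 FPKM. The neural genes were lower too. Olig2 was at 1.12 FPKM against 5.19 FPKM, and Mnx1 was at 0.108 FPKM in Suz12delta ESCs, under both wild-type lines. Among Hox genes, Hoxa11 was at 2.20 and 2.11 FPKM, but Hoxd9 was at 0.528 against 3.45 FPKM. Pou5f1 was at 58.1 FPKM in Suz12delta ESCs and 149 FPKM in Eednull ESCs. Summed fibroblast genes reached 1300.3 FPKM in Suz12delta ESCs, above the 566 FPKM of Eednull ESCs.

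The largest falls were smaller and of mixed kinds. Kbtbd11 (chromosome 8, 15011025 to 15033330), a BTB and kelch domain protein, was at 2.27 FPKM in E14, 1.93 FPKM in CJ7 and 0.121 FPKM in Eednull ESCs, 9.17-fold lower than in the closer line. Cobl, an actin nucleator, had the highest starting level of the 12, falling from 26.6 and 28.5 FPKM to 4.44 FPKM. Bdh2, a dehydrogenase, fell from 5.24 and 5.15 FPKM to 0.908 FPKM, and Trub1, a pseudouridine synthase, from 7.50 and 6.82 FPKM to 1.25 FPKM. The other 7, beside Sfrp4, were Nlrp9b, Lrrc31, Ppef2, Rerg, Insl3, Pdcl2 and a short entry within the locus of Mafg (1.92, 1.43 and 0.177 FPKM). The larger Mafg entry, which overlaps it, was at 35.7, 23.0 and 22.2 FPKM, so the fall of the short entry is uncertain as a change of the gene. Of the genes called lower, 66.9% were protein coding, against 87.4% of those called higher and 82.0% overall. The lowest ratios that still counted were those of Gm11367 and Shb on the higher side and Rpl19-ps12 and Gm12466 on the lower, and Efemp2, C1s, AI467606 and Mkrn3 fell just short.

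Called genes lay next to each other in part. Of the 616 protein-coding genes called higher, 124 (20.1%) had a neighbouring gene compared that was also called higher, where 9.27% of all 12603 genes had one. For the 218 called lower this was 47 (21.6%), against 3.32%. Beside the Hox and keratin genes, runs of at least 3 consecutive genes among those compared included Tes, Cav2 and Cav1 on chromosome 6, Col4a1, Col4a2 and Rab20 on chromosome 8, and Unc13a, Jak3 and Insl3 among the lower genes. The Sprr2 genes of chromosome 3 (Sprr2a1, Sprr2a2, Sprr2a3 and Sprr2b) are near-identical copies, so that shared reads may raise them together. A further lower run was Plxdc1, Arl5c and Cacnb1 on chromosome 11. Other lower runs held mostly predicted genes, such as Gm6763, Gm8766 and Gm4340 on chromosome 10 and Gm17573, Gm2858 and Gm10525 on chromosome 18. These count among the 47, and whether they share reads was not tested. By chromosome, the ratio to CJ7 was shifted on chromosome 8, with a median of -0.19, which was 0.29 below the other autosomes, and on chromosome 11, with -0.08. The ratio to E14 had no such shift, with -0.14 and -0.11. Accordingly 7.32% of genes on chromosome 8 were at least 2-fold lower than in CJ7, against 4.07% over all chromosomes. Copy number was not measured here.

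The day 5 libraries were not used by the rule. They hold cells after 5 days of directed differentiation toward spinal motor neurons, from the same Eednull line and from E14, Suz12delta and Suz12GT cells, the last a gene trap line of 129/Ola background that keeps intermediate levels of the mark. Of the 705 genes called higher in ESCs, 633 were above 0 in both the Eednull and E14 day 5 libraries. Of these 362 (57.2%) were again at least 2-fold higher in Eednull cells and 81 (12.8%) at least 2-fold lower, against 14.3% and 7.34% of all genes compared in ESCs. Their median log2 ratio was 1.38, against 0.03 over all. In Suz12delta day 5 cells 386 of 634 (60.9%) were at least 2-fold higher and 65 (10.3%) lower, where 18.4% and 5.49% of all genes were. In Suz12GT cells 288 of 636 (45.3%) were higher and 13 (2.04%) lower, where 9.70% and 1.80% were. The 3 comparisons share the E14 day 5 library. The genes called lower in ESCs did not keep their direction to this extent. Of 275, 41 (14.9%) were at least 2-fold lower and 52 (18.9%) at least 2-fold higher in Eednull day 5 cells, with a median of 0.13.

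**Figure D5:**
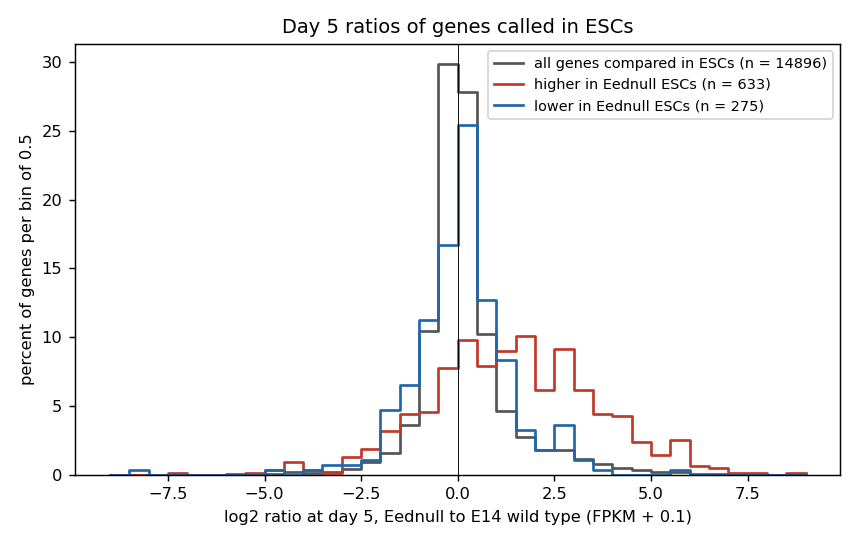
Log2 ratio of Eednull to E14 day 5 cells (x axis) as percent of genes in bins of 0.5 (y axis), for all genes compared in ESCs and for those called higher or lower in Eednull ESCs. The line of genes called higher is shifted to the right (median 1.38), while that of genes called lower stays close to all genes (median 0.13 against 0.03).

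The lists differed at day 5, several of them with few genes. Of all genes called higher in ESCs and above 0 in both day 5 libraries, 57.2% were again at least 2-fold higher and 12.8% lower. Over all genes compared these shares were 14.3% and 7.34%. All 10 of the trophoblast genes called higher in ESCs that were above 0 in both day 5 libraries were at least 2-fold higher again, and so were 15 of 16 endoderm genes, the exception being Lama1 (14.8 FPKM in E14 and 12.7 FPKM in Eednull cells), 4 of 4 primitive streak and mesoderm genes and 5 of 5 imprinted genes. Cdx2 was at 0.00927 FPKM in E14 and 5.79 FPKM in Eednull cells, Krt19 at 0.490 and 68.9 FPKM, Pdgfra, a receptor of primitive endoderm and mesenchyme, at 0.135 and 11 FPKM, and H19 at 1.92 and 793 FPKM. Fibroblast genes were higher at day 5 too, with Col1a1 at 0.290 FPKM in E14 and 8.68 FPKM in Eednull cells, although both levels were below those of the same lines as ESCs. The Hox and neural lists split. Of 13 Hox genes, 7 were higher by that size in Eednull day 5 cells and 5 were lower. The higher ones were Hoxa7, Hoxc8, Hoxc9, Hoxc13, Hoxd9, Hoxd11 and Hoxd13, the last at 0.0426 FPKM in E14 and 6.68 FPKM in Eednull cells. The lower ones, Hoxa3, Hoxa5, Hoxb3, Hoxb4 and Hoxb8, are genes that wild-type motor neuron cultures express at high levels, such as Hoxb8 with 91.2 FPKM in E14 and 19 FPKM in Eednull cells. Of 10 neural regulators, 4 again were at least 2-fold higher (Six2, Lhx2 and Zic1 among them) and 6 at least 2-fold lower (Olig1, Olig2, Olig3, Nkx2-2, Nkx6-2 and Mnx1). Olig2 stood at 22.1 FPKM in E14 day 5 cells and 0.0455 FPKM in Eednull day 5 cells, the reverse of its order in ESCs.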

How the data were processed

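RNA-seq libraries of Eednull, E14 and CJ7 ESCs were compared, with 1 library per condition. Gene-level FPKM were deposited by the authors from Trizol RNA sequenced on an Illumina GA-2 or Hi-Seq, with TopHat 1.3.2, Bowtie 0.12.7, Cufflinks 1.2.1 (bias and multi-read correction) and Cuffdiff on an Ensembl-based annotation of NCBI build 37. Values were used as deposited. Low values did not fall on steps of single reads, so depth is unknown and no counting interval is given, and an exact 0 can be a failed estimate: 12 genes were listed at 0 in Eednull ESCs but at 10 FPKM or more in both wild-type lines.

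Log2 ratios used a pseudocount of 0.1 FPKM. Genes needed 1 FPKM in 1 of 3 libraries and values above 0 in all 3. A call means at least 2-fold in one direction against both lines, and no test was run. The calling rule was run on simulated data with planted changes far above 2-fold and little noise. That checks the code and says nothing of how reliable the calls are. The members and the 23 gene lists were chosen with earlier results of these data known. Named genes were the 12 largest rises and 12 largest falls by the ratio to the closer line (predicted genes, small RNAs and pseudogenes left out), PRC2 core genes, up to 6 called genes per list and up to 3 going the other way, Pou5f1, Nanog, Sox2, Zfp42, Col1a1, Col1a2, Col3a1 and Thy1, and the 2 genes on each side of the threshold. Some genes the rule names are not reported here. Other members were named after their values were seen. Where a symbol had several IDs, list members took the ID with the highest mean. Gene positions are from GENCODE vM1, and promoters were found in RefSeq for 76 of 107 named genes. Tfcp2l1, Tfap2a, Tfap2c, Sox1, Kcnq1ot1, Nesp and Jpx were not analysed here. Python 3.11.15, NumPy 2.4.6, pandas 2.3.3 and Matplotlib 3.10.9 were used. Alternatives changed the pseudocount, minimum, zeros, scaling, reference line and threshold.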

Additional observations from a re-analysis of the deposited data

Results flagged for a closer look

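Some genes called in ESCs differed at least 2-fold the other way between Eednull and E14 cells at day 5. Over all called genes this held for 81 of those called higher and 52 of those called lower. Only those among the genes named by the rule in the methods are given here, with their log2 ratios. The difference between the 2 stages was not tested, since each condition had 1 library. Higher in Eednull ESCs but lower at day 5 were Olig2, at -7.26 after 5.20 in ESCs, Olig1 at -5.08 after 4.26, Nkx2-2 at -4.19 after 2.94, Mnx1 at -2.73 after 2.26 and Egln3 at -2.14 after 1.06. Lower in Eednull ESCs but higher at day 5 were Tbx3, at 5.86 after -1.16, Bdh2 at 3.09 after -2.38, Rerg at 2.72 after -2.35, Egr1 at 2.08 after -1.16, Stag3 at 1.43 after -1.35, Insl3 at 1.26 after -2.22, the short entry at Mafg at 1.25 after -2.47, Cobl at 1.22 after -2.56 and Esrrb at 1.08 after -1.13. Both day 5 libraries were under 1 FPKM for Insl3 (0.0842 in E14 and 0.342 in Eednull cells) and Esrrb (0.157 and 0.443).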

How the results depend on the processing

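No paired analysis was possible because each condition had 1 library and no replicate numbers pair the groups. The 705 higher and 326 lower genes became 364 and 132 with a pseudocount of 1, 290 and 147 with a minimum of 5 FPKM, 1553 and 626 against CJ7 alone, 1211 and 1565 against E14 alone, 1465 and 995 at 1.5-fold and 121 and 37 at 4-fold. They stayed within 1.5 times with a pseudocount of 0.01, a minimum of 0.1 FPKM, zeros kept and either scaling. Higher genes made up 68.4% of calls, 43.6% against E14 alone and 59.6% to 76.6% otherwise. Scaling to the same 75th percentile kept 673 of the 705 and 293 of the 326 genes, and median-ratio scaling 658 and 309. The first moved the median ratio from -0.14 to 0.01 against E14 and from 0.09 to 0.02 against CJ7. At day 5, the 362 genes higher again and 41 lower again became 176 of 323 and 19 of 123 with a pseudocount of 1. No called named gene changed sign under either scaling or pseudocount, but 21 of 91 fell below 2-fold with a pseudocount of 1, among them Mnx1, Pitx1, Wnt11, Snai1 and Twist2. Hox genes called fell from 17 to 8 and neural regulators from 10 to 6 at that setting. Depth is unknown, so counting error cannot be given for genes at low levels.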

Other observations

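Over all genes compared, 4.59% were called higher and 2.12% lower. By any size, 31.2% were higher than in both wild-type lines and 33.7% were lower. Of 22 genes of glycolysis and hypoxia compared, 1 was called higher (4.55%) and none lower, while 13 were higher than in both wild-type lines and 3 lower. The called gene was Egln3, a prolyl hydroxylase of the hypoxia pathway, at 4.34 FPKM in E14, 3.70 FPKM in CJ7 and 9.15 FPKM in Eednull ESCs, and Ldha, which makes lactate, was at 139.6, 201 and 312 FPKM. Of 15 p53 target genes 2 were called higher (13.3%) and none lower, while 3 were higher than in both wild-type lines and 7 lower. Both called genes are linked to cell death. Perp, a desmosome protein, was at 8.95, 7.77 and 18.8 FPKM, and Pmaip1, which encodes NOXA, at 12.3, 8.37 and 28.9 FPKM. Of 22 heat shock and stress genes 1 was called lower (4.55%), Egr1, an immediate early gene, at 60.2, 48.1 and 21.5 FPKM. Fos (127, 32.8 and 91.3 FPKM) and Atf3 (17.6, 5.64 and 18.8 FPKM) differed more between the wild-type lines than between Eednull and E14 ESCs.

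Germline and meiosis genes went both ways, with 2 called higher and 2 lower of 22 compared (9.09% each). Sycp1, of the synaptonemal complex, was at 1.84, 2.39 and 6.77 FPKM, and Taf7l, a germ cell TFIID subunit, at 2.07, 1.34 and 6.42 FPKM. Stag3, the meiotic cohesin subunit, fell from 30.5 FPKM in E14 and 15.0 FPKM in CJ7 to 5.82 FPKM, and Hormad1, a meiotic chromosome axis protein, from 7.34 and 3.17 to 1.33 FPKM. Of 14 ion channel genes compared, 2 were called higher (14.3%, against 4.59% of all genes) and none lower. Kcng1 (0.283, 0.759 and 2.03 FPKM) and Cacna1c (0.347, 0.456 and 1.17 FPKM) both reached 1 FPKM only in Eednull ESCs. Of 6 X-linked dosage and Y-linked genes none was called, and Xist was at 4.55, 6.64 and 5.18 FPKM. Of the 20 genes compared that the study names as PRC2 targets, 12 were called higher and none lower, but 10 of the 20 reached 1 FPKM only in Eednull ESCs and gave 8 of these calls. Of the other 10, 4 were called higher (40.0%, against 2.56% of all genes at 1 FPKM or more in a wild-type line), with a median log2 ratio to the closer line of 0.07. This list was chosen by the study on its own samples and is not independent evidence of direction.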
